A study of Mus musculus with 6 samples.

Results

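The imprinted Dlk1-Dio3 cluster is one of the largest groups of miRNA genes in the mouse genome, and its mature miRNAs were counted here in extracellular vesicles (exosomes in the labels) prepared from young and from old mouse muscle. Its loci were taken by position alone, as every row of the count table inside a fixed window of chromosome 12. This gave 116 mature miRNA loci from 60 miRNA genes, of 2110 loci in the table, the first starting at 109544588 and the last ending at 109747949 (mm10). The nearest loci of the table outside the window lie 707.5 kb before the first of them (miR-345-3p, 129 counts in all libraries) and 530.1 kb after the last (miR-1247-3p, 3 counts), while the outermost loci inside it, miR-1906 and both arms of miR-3072, had 0 counts. The series holds 3 libraries from young and 3 from old muscle. No genotype, strain, treatment, sex, age in weeks or muscle is given in the labels, and nothing says that the libraries of a group came from separate animals. The p-values therefore cover the spread among these 6 libraries alone, and this may be technical spread.

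In this domain the protein-coding genes Dlk1, Rtl1 and Dio3 are expressed from the paternal chromosome, and the non-coding RNAs Meg3, an antisense transcript of Rtl1, Rian and Mirg from the maternal one. Most of the miRNAs lie in these maternal RNAs, but both arms of miR-3544, miR-3071 and miR-299b are annotated on the opposite strand. The maternal RNAs are thought to be made as one long transcript and then cut into hairpins. Each hairpin has a 5p and a 3p arm that can be loaded into an Argonaute protein. A loaded miRNA pairs with target mRNAs mainly through its seed, bases 2 to 8. In skeletal muscle the cluster is known from muscle stem cells and regeneration, where the transcription factor MEF2A drives it.

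The sequences of the tested loci show which seeds the cluster contributed to the vesicles. They are the RefSeq mature sequences (GRCm38.p6, the assembly also called mm10), 5′ to 3′, with the seed in capitals, in order along the chromosome. Sequences were matched for 112 of the 116 loci, and miR-376c-3p and miR-487b-3p, also tested, are named only.
miR-493-5p: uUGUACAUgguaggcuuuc
miR-127-3p: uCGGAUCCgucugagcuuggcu
miR-379-5p: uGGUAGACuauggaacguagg
miR-411-5p: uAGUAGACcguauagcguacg
miR-411-3p: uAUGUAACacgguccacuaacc
miR-376a-3p: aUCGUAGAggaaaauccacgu
miR-381-3p: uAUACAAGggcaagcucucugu
miR-409-3p: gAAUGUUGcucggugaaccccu
miR-412-5p: uGGUCGACcagcuggaaaguaau
miR-369-5p: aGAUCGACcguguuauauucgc
miR-369-3p: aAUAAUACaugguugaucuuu
miR-410-3p: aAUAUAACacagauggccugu

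No 2 of these 12 share a seed. miR-379-5p and miR-411-5p, the first hairpins of the Mirg group, differ in their seeds but share the letters GUNGAC within bases 2 to 8, where N is any base. That motif, picked after the sequences were seen and searched on the RNA strand, stood in the seed of 6 of 55 distinct 5p sequences of the cluster (10.9%), in none of its 56 3p sequences, and in 0.657% of 1675 distinct mature sequences of the table. miR-412-5p, miR-758-5p, miR-1193-5p and miR-1197-5p also hold it. Reads of close sequences could be confused with each other. These 12 were compared with the other matched mature sequences of the table. The closest pair was miR-411-3p and miR-379-3p, which differed at 2 of 22 bases. The others of the 12 differed from their nearest neighbour at 3 to 8 bases. miR-376c-3p, miR-487b-3p, all other loci without a matched sequence and the rest of the genome were not compared.

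The cluster was a minor part of the vesicle miRNA. It held 1339, 1534 and 1279 counts in young replicates 1, 2 and 3, and 1389, 1638 and 1491 in old replicates 1, 2 and 3. Library totals ran from 904892 to 1706396 counts, the lowest being old replicate 1. As a share of its library the cluster took 0.0917% (95% exact binomial interval 0.0869 to 0.0968), 0.0899% and 0.0840% in young, and 0.153% (0.146 to 0.162), 0.116% and 0.108% (0.102 to 0.113) in old. Every old library lay above every young one, and old replicate 1 was the highest. The young mean was 0.0885% ± 0.00406 and the old mean 0.126% ± 0.0245 (SD over 3 libraries each), a ratio of 1.42, or 1.26 without old replicate 1. This ratio was 1.28 with miR-21a-5p, the locus with the most counts, taken out of the library totals. It is a description without a test, and the intervals cover counting error only.

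The loci fell into 4 position groups of very unequal counts. The Mirg group, which runs from miR-379 to miR-3072 and has 77 loci (109709065 to 109747949), held 6494 of the cluster's 8670 counts, or 74.9%. The Rtl1 antisense group, with 27 loci (109580243 to 109595387), held 2171, or 25.0%. The 5 loci on the Meg3 side held 1 count and the 7 loci on the Rian side held 4. In the annotation 11 loci lie opposite an exon of Rtl1, 27 lie in an exon or intron of Mirg, 6 in introns of Rian and 3 in an exon of Meg3, while the 2 loci of miR-3071 lie on the strand of Rtl1 itself. For 67 loci, most of the Mirg group among them, no other annotated gene covers the locus.

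**Figure D1:**
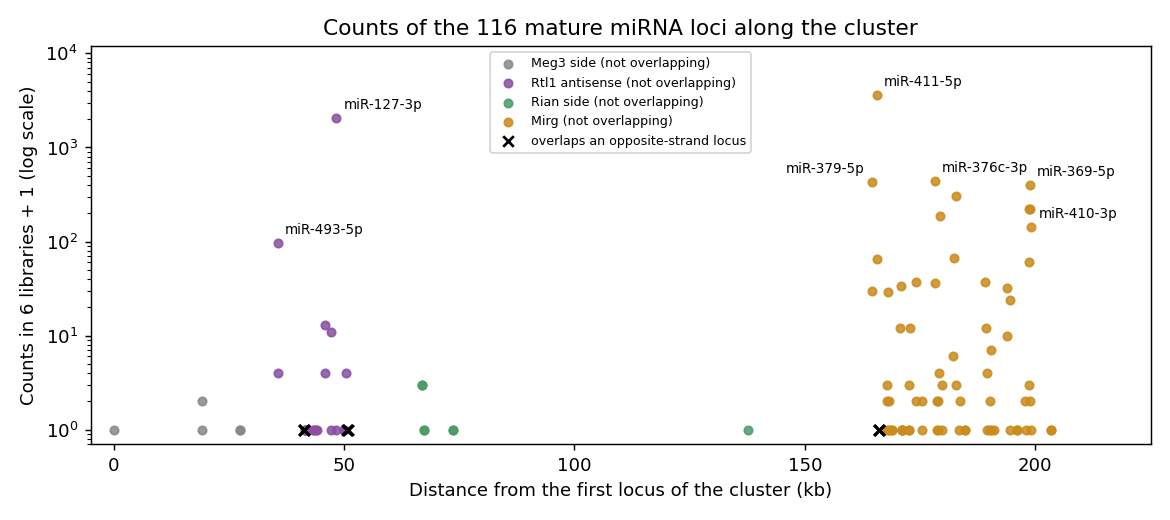
Counts of each locus summed over the 6 libraries plus 1 (log scale) against its distance in kb from the first locus. Points are coloured by position group, and crosses mark loci that overlap a locus on the opposite strand. miR-127-3p (2045 counts) and miR-411-5p (3636) stand far above the rest, and all 12 crosses lie at 0 counts.

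Part of the cluster could not be read from the table. The authors counted reads without a strand setting, so that a read over 2 overlapping loci was left unassigned, and 12 loci of the cluster share 17 to 21 bases with a locus of the other strand. All 12 held 0 counts in every library. They were 8 of the 27 loci of the Rtl1 antisense group and 4 of the 77 of the Mirg group. The counts and shares given for these groups leave them out. The 12 loci are both arms of miR-337 and miR-3544, of miR-136 and miR-3071, and of miR-299a and miR-299b. miR-136-5p, one of the miRNAs opposite to Rtl1, shows the geometry: 20 of its 22 bases lie over miR-3071-3p, which is read from the other strand. The mature sequences are printed with the seed in capitals.
miR-136-5p: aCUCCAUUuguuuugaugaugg
miR-3071-3p: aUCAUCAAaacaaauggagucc

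For these 12 loci a count of 0 gives no limit on their amount. Among the other 104 loci a count was present at 53 (51.0%), close to the 993 of 2004 non-overlapping loci of the whole table (49.6%). Of these 53, 22 had a count in all 6 libraries, 20 of them in the Mirg group. The remaining 51 held 0 in every library, which at 3 counts allows up to 1.76 to 3.32 CPM (library counts scaled to parts per 1e+06) depending on the library. A single count in one library, as for miR-770-5p on the Meg3 side, is not more than that limit.

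Counts were concentrated in few loci. miR-411-5p held 41.9% and miR-127-3p 23.6% of the cluster's counts, and they ranked 96 and 113 among all loci by total count. Only 14 loci passed the filter on low counts, with 95.8% of the cluster's counts, and all 14 reached the filter's level of 6.95 CPM in at least 1 library of each group. The other 102 loci, of which 39 had a count, held 366 counts together. Of the 14 tested loci, 12 belong to the Mirg group and 2, miR-493-5p and miR-127-3p, to the Rtl1 antisense group.

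The 2 ages were compared to ask whether the miRNAs of the cluster change in relative amount with the age of the muscle. Levels are CPM on TMM-scaled library sizes, relative to the other counted miRNAs. In such preparations fewer vesicles from a cell type and less of a miRNA per vesicle cannot be told apart. No locus of the cluster passed edgeR's quasi-likelihood test at an adjusted p of 0.05, where 15 of 347 loci (4.32%) passed over the whole table. At an unadjusted p under 0.05 there were 5 of the 14, beside 22.5% of all loci tested. DESeq2 called 1 of the 14, miR-410-3p, beside 14 higher and 9 lower of 347 loci of the whole table. Of the 14 log2 fold changes 11 were above 0, beside 52.4% of all loci tested, and their median was 0.40, beside 0.04 for all. The libraries of the 2 ages did not overlap at 6 of the 14, each higher in old, beside 14.1% of loci that did so in that direction. The 14 loci share a chromosome domain, and 2 pairs of them share a hairpin, so that they are not independent measurements.

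**Figure D2:**
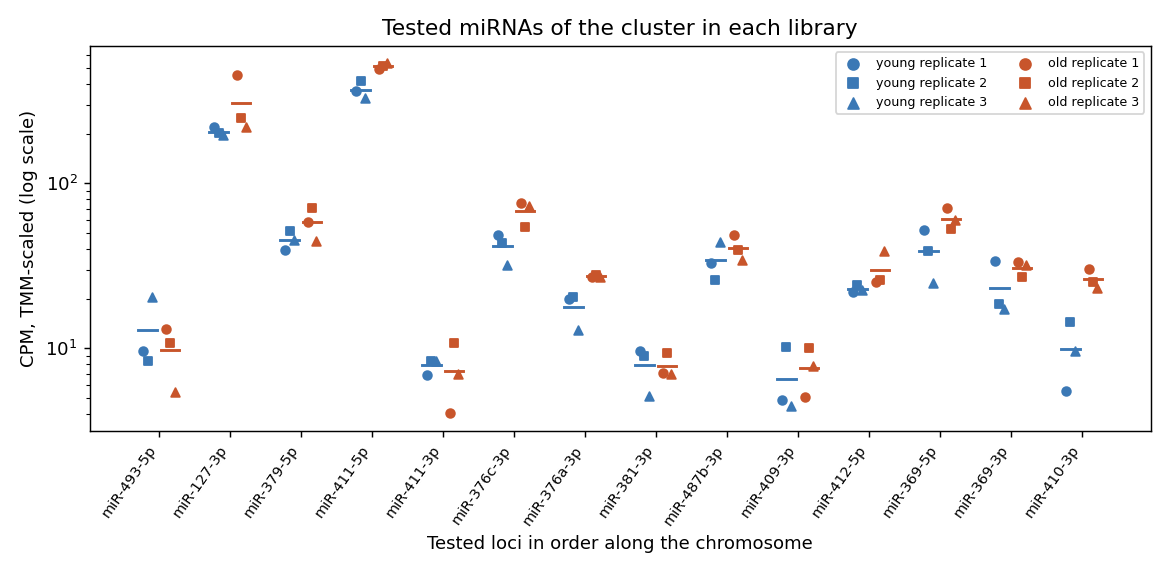
TMM-scaled CPM (log scale) of the 14 tested loci in order along the chromosome, with 1 point per library and a bar at each group's mean. All old libraries lie above all young ones for miR-411-5p, miR-376c-3p, miR-376a-3p, miR-412-5p, miR-369-5p and miR-410-3p.

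Mir410, near the distal end of the Mirg group, came closest to a call. miR-410-3p (109743764 to 109743784, in an exon of Mirg) had 5.51, 14.4 and 9.61 CPM in young and 30.2, 25.0 and 23.3 CPM in old libraries. The lowest old library lay above the highest young one. The group means were 9.85 ± 4.46 and 26.2 ± 3.61 CPM (SD, n = 3 each), a log2 fold change of 1.38 ± 0.40 (SE) or 2.60-fold, with an adjusted p of 0.0545 by edgeR's quasi-likelihood test. These levels rest on 8, 24 and 15 counts in young and 30, 35 and 30 in old. Its part of the cluster's own counts was 0.597% to 1.57% in young and 2.01% to 2.16% in old libraries, so that it was also higher relative to its neighbours. It passed with DESeq2 (adjusted p = 0.0291), with miR-21a-5p left out of the scaling (0.0482), without old replicate 1 (0.0391) and without old replicate 3 (0.0390). In each of these settings more than the 15 loci given above passed over the whole table. Over all alternatives the adjusted p of miR-410-3p ran from 0.0291 to 0.217 and its log2 fold change from 1.07 to 1.77.

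miR-411-5p, the most abundant miRNA of the cluster, is made by the second hairpin of the Mirg group (109710190 to 109710210). It had 364, 417 and 331 CPM in young and 495, 514 and 534 CPM in old libraries. The old libraries, with 491, 719 and 689 counts, lay close together and all above the young ones. The estimate was 0.47 on the log2 scale ± 0.17 (SE, adjusted p = 0.139 by edgeR). Without old replicate 1, where 25 loci of the whole table were higher and 20 lower, miR-411-5p passed (0.52, adjusted p = 0.0346 by edgeR). Its part of the cluster's counts hardly moved, with a young mean of 41.7% ± 3.09 and an old mean of 41.8% ± 5.72 (SD over 3 libraries each). Its neighbour miR-379-5p, the first hairpin of the group, had 39.3, 51.1 and 45.5 CPM in young and 58.4, 70.8 and 45.0 CPM in old. Its groups overlapped through old replicate 3 (log2 fold change 0.36 ± 0.26 with edgeR, adjusted p = 0.479).

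The 376 family is known for editing of its hairpins by adenosine deaminases. miR-376c-3p (109722770 to 109722790) had 48.9, 43.3 and 32.0 CPM in young and 75.6, 54.4 and 72.9 CPM in old, with no overlap between the ages (log2 fold change 0.70 ± 0.26 with edgeR, adjusted p = 0.139). miR-376a-3p (109723824 to 109723844) had 19.98, 20.4 and 12.8 CPM in young and 27.2, 27.9 and 27.1 CPM in old (0.63 ± 0.33, adjusted p = 0.278 by edgeR). Its old libraries, with only 27, 39 and 35 counts, were nearly equal in CPM and lay above all young ones. The third family member, miR-376b-3p, had 1 count in all libraries together.

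Mir412 and Mir369 lie close before Mir410, and miR-412-5p and both arms of miR-369 are in introns of Mirg. miR-369-5p (109743431 to 109743452) had 52.4, 39.1 and 25.0 CPM in young and 70.5, 52.9 and 59.7 CPM in old. The ages were separated by a narrow margin, between young replicate 1 and old replicate 2 (log2 fold change 0.65 ± 0.29 with edgeR, adjusted p = 0.187). The other arm, miR-369-3p, known for binding AU-rich elements of the tumour necrosis factor mRNA, had 33.8, 18.6 and 17.3 CPM in young and 33.2, 27.2 and 31.8 CPM in old. Here young replicate 1 was the highest library and the groups overlapped (0.41 ± 0.33, adjusted p = 0.531 by edgeR). miR-412-5p had 22.0, 24.0 and 22.4 CPM in young and 25.2, 25.8 and 38.8 CPM in old (0.39 ± 0.31, adjusted p = 0.522 by edgeR). The groups did not overlap, but only old replicate 3 stood well above the young range.

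miR-127-3p carried the Rtl1 antisense group, with 2045 of its 2171 counts (109592888 to 109592909, opposite an exon of Rtl1). It pairs perfectly with the Rtl1 mRNA from the other strand and is known to direct its cleavage. It had 220, 201 and 197 CPM in young and 456, 248 and 220 CPM in old. Old replicate 1 stood far above the other 5 libraries, and old replicate 3 fell within the young range. The log2 fold change was 0.57 ± 0.24 (SE, adjusted p = 0.178 by edgeR). It was 0.20 without old replicate 1. Without old replicate 3, where 17 loci of the whole table were higher and 12 lower, miR-127-3p passed at 0.74 (adjusted p = 0.0390 by edgeR). As a part of the cluster it took 32.6% in old replicate 1 and 19.0% to 24.1% in the other 5 libraries. miR-493-5p, the first locus of the group along the chromosome, had 9.64, 8.42 and 20.5 CPM in young and 13.1, 10.7 and 5.43 CPM in old. Young replicate 3 was its highest library, and its log2 fold change of -0.42 ± 0.50 (edgeR, adjusted p = 0.710) was 0.09 without that library.

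The remaining tested loci lie in the Mirg group and differed by less than their spread. miR-487b-3p had 33.1, 25.8 and 44.2 CPM in young and 48.4, 39.4 and 34.1 CPM in old (log2 fold change 0.23 ± 0.29 with edgeR, adjusted p = 0.730). miR-409-3p had 4.82, 10.2 and 4.49 CPM in young and 5.04, 10.02 and 7.76 CPM in old (0.24 ± 0.56). miR-381-3p had 9.64, 9.02 and 5.13 CPM in young and 7.05, 9.30 and 6.98 CPM in old (-0.01 ± 0.51). miR-411-3p, the minor arm of Mir411, had 6.89, 8.42 and 8.33 CPM in young and 4.03, 10.7 and 6.98 CPM in old (-0.08 ± 0.52). The last of these, miR-409-3p, miR-381-3p and miR-411-3p, were counted 4 to 17 times per library, and their groups overlapped throughout.

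**Figure D3:**
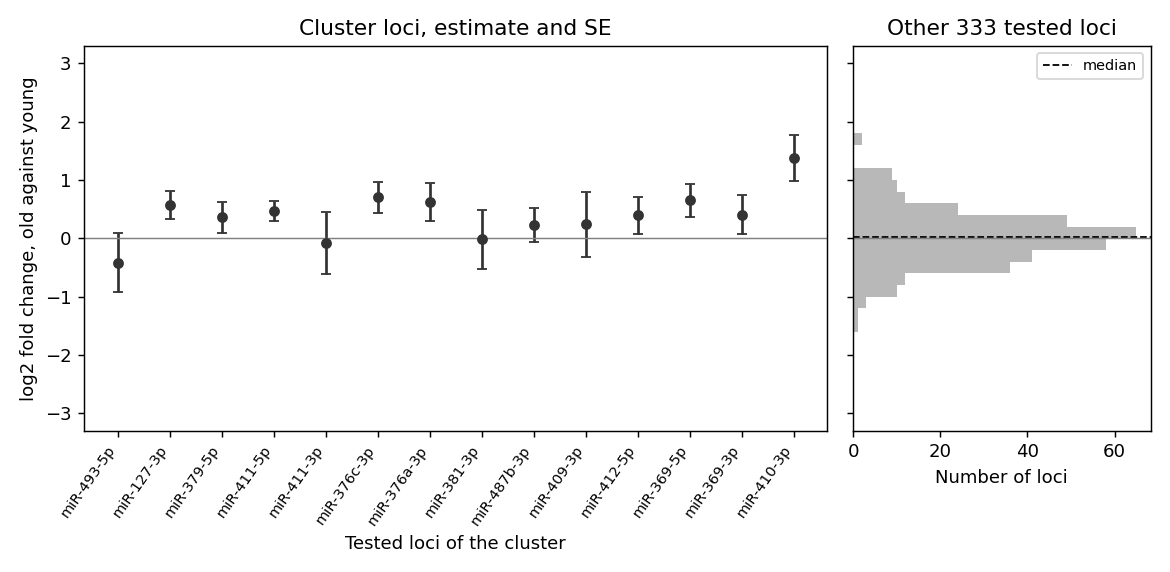
Log2 fold change of old against young, with its SE, for the 14 tested loci of the cluster (left), beside the distribution of the other 333 tested loci with its median (right). Most cluster loci lie above 0, miR-410-3p highest at 1.38 and miR-493-5p lowest at -0.42.

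Summed over all its loci, the Mirg group had 686, 711 and 597 CPM in young and 925, 908 and 928 CPM in old libraries. The old libraries were tightly grouped and all above the young ones, a ratio of means of 1.38 with old replicate 1 and also 1.38 without it. The old sums rest on 918, 1269 and 1196 counts in replicates 1, 2 and 3. Their closeness was not tested against counting error. The Rtl1 antisense group had 234, 211 and 222 CPM in young and 475, 264 and 228 CPM in old. Its ratio of 1.45 became 1.11 without old replicate 1, and old replicate 3 lay within the young range. Without miR-411-5p and miR-127-3p the cluster still had a ratio of 1.35 (312 ± 24.0 and 420.1 ± 24.7 CPM, SD, n = 3 each). The 102 loci under the filter together had 52.4, 31.9 and 44.2 CPM in young and 50.4, 45.1 and 42.7 CPM in old, a ratio of 1.08 with overlapping groups. These sums carry no test, and the difference between the 2 position groups was not tested.

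**Figure D4:**
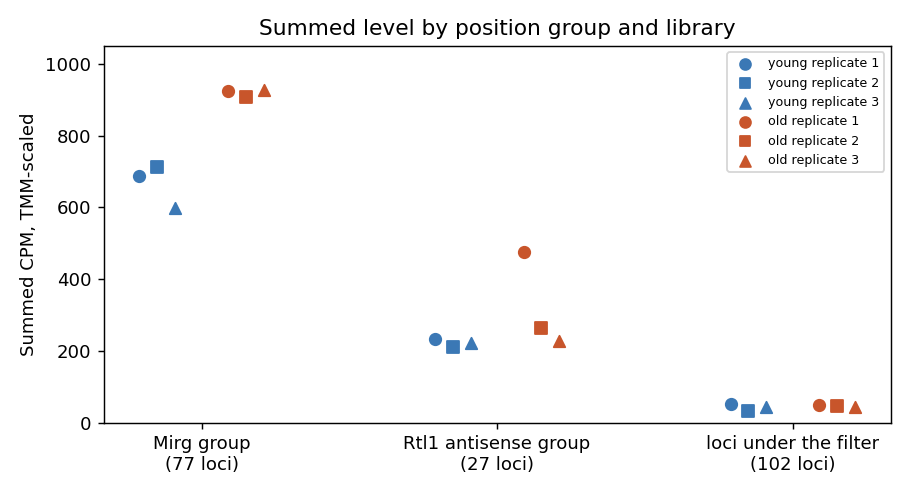
Summed TMM-scaled CPM of the Mirg group, the Rtl1 antisense group and the loci under the filter (which also belong to the position groups), 1 point per library. The Mirg sums of old libraries, 908 to 928 CPM, lie above the young ones, 597 to 711 CPM, while old replicate 1 stands alone in the Rtl1 antisense group.

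Levels of marker miRNAs moved between libraries as well. The 8 loci of the muscle list belong to 6 miRNAs (miR-1a, miR-133a, miR-133b, miR-206, miR-208b and miR-499). They took 4.95% to 6.26% of counts in young and 9.91%, 5.83% and 4.61% in old libraries. Old replicate 1 was the highest both here and for miR-127-3p. Most of this share was miR-206-3p, with 432815 counts over all libraries, beside 28079 for miR-133a-3p, the next largest. miR-206-3p had 45988 to 55398 CPM in young and 79195, 50413 and 39254 CPM in old. Its estimate was 0.17 ± 0.22 (SE) on the log2 scale, and it was not called. All 6 tested loci of the list were above 0 and 4 rose, beside 12 higher and 3 lower of 347 loci of the whole table. These 4 were both copies of miR-133a-3p, 1 copy of miR-1a-3p and miR-499-5p. The 2 copies of miR-133a-3p share a mature sequence and are not independent measurements. The overlapping second copy of miR-1a-3p was at 0. The 8 loci of the fibroblast and smooth muscle list, all detected and led by miR-143-3p, summed to 37480 to 39300 CPM in young and 47730 to 53980 CPM in old. This sum was higher in every old library, as that of the Mirg group was. Tested loci went both ways in each, with 10 of 12 above 0 in the Mirg group. Of the 8 fibroblast and smooth muscle loci 5 had a log2 fold change above 0. Of these 1, miR-143-3p, rose, from 14027 to 15801 CPM in young to 23490 to 24981 CPM in old. Both copies of miR-199a-5p (-0.49 and -0.47) and miR-214-3p (-0.40) were lower in every old library than in any young one and did not pass edgeR's test. The neural list (3 of 9 loci at 0, all copies of miR-9-5p and all overlapping a locus of the other strand) summed to 254 to 306 CPM in young and 298 to 404 CPM in old, with all 6 tested loci above 0 and none called. The leukocyte list (1 of 5 loci at 0, miR-142a-3p, which overlaps another locus) summed to 1143 to 1345 CPM in young and 895 to 1008 CPM in old, and 1 locus, miR-155-5p, fell. The other 3 tested leukocyte loci, miR-142a-5p (log2 fold change 0.79), miR-150-5p (0.09) and miR-223-3p (0.11), were above 0 and did not pass. The red blood cell list summed to 40540 to 42800 CPM in young and 41230 to 48320 CPM in old, with all 3 tested loci above 0 and none called, and miR-486a-5p, which overlaps another locus, was at 0. A count of 0 at an overlapping locus gives no limit on its amount in these lists either. Both endothelial loci, the arms of miR-126a, were at 0 and overlap other loci. The part of these cell types in the values of the cluster was not tested.

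Other imprinted miRNAs outside the window gave a comparison over the same libraries. The 139 loci inside the paternally expressed gene Sfmbt2 had 24 tested loci, of which 7 were above 0 and none was called, with a median log2 fold change of -0.11. Their sum was 582 to 610 CPM in young and 543 to 616 CPM in old. Many of the 139 loci are copies that share a mature sequence, so that they are not independent measurements. The 12 loci of Mir335, Mir675, Mir483, Mir296, Mir298 and Mir1247, the last of them next to Dio3 in the same domain but beyond the range used here, had 5 tested loci, of which 3 were above 0 and none was called, with a median of 0.09. Their sum was 945 to 1127 CPM in young and 1005 to 1192 CPM in old. Mir675 made up most of it, with 7820 counts over all libraries, beside 463 for Mir298, the next largest. The difference between these lists and the Dlk1-Dio3 cluster was not tested.

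Most of the well-counted hairpins gave mainly one arm, and which arm it was differed between neighbours. Of 34 hairpins with both arms in the table, no overlap and at least 1 count, the 3p arm led in 21 and the 5p arm in 12, and 1 was even. Several of these leads rest on a single count over all libraries, which cannot show which arm leads. By counts the 5p arms took 56.6% of the cluster, because miR-411-5p is a 5p arm. The hairpins of Mir127, Mir411, Mir412 and Mir369 (RefSeq, plus strand) are shown because they differ in arm use, from 3p alone through mostly 5p (Mir411 and Mir412) to both arms, and are printed with both mature arms in capitals.
Mir127: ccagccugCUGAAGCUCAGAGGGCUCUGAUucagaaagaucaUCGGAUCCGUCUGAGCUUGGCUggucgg
Mir411: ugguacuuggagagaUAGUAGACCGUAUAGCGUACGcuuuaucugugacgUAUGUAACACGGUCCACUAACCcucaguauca
Mir412: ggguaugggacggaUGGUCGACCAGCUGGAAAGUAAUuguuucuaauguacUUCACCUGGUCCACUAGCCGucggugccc
Mir369: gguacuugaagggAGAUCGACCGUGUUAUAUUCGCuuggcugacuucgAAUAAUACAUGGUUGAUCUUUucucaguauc

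Over the 6 libraries, Mir127 gave the 3p arm alone, with 2045 of 2045 counts (95% exact binomial interval 99.8% to 100%). Mir411 gave 1.76% 3p (1.36% to 2.23% of 3701 counts) and Mir412 0.457% (0.0116% to 2.52% of 219 counts). Mir369 was the only one of 8 hairpins with at least 20 counts in every library that gave a sizeable part from both arms, with 35.3% 3p (31.6% to 39.2% of 620 counts). Mir379 gave 6.35% 3p, and Mir376c, Mir376a and Mir487b gave 92.6%, 98.4% and 99.4%. These intervals pool the libraries of both ages and cover counting error only. Single libraries could differ more, as for Mir379, which ran from 3.41% to 11.3% 3p.

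Arm use was then compared between the ages, which the position rule did not use. The 3p share of Mir369 was 39.2%, 32.3% and 40.9% in young and 32.0%, 33.9% and 34.8% in old libraries. The old libraries were closer together, and the groups overlapped (difference -3.90 percentage points, exact permutation p = 0.3, adjusted 0.8). For Mir376c it was 91.0%, 93.5% and 86.2% in young and 92.6%, 95.0% and 94.9% in old, a difference of 3.93 points (exact permutation p = 0.2, adjusted 0.8). For Mir411 the young mean was 2.10% ± 0.317 and the old mean 1.38% ± 0.623 (SD, n = 3 each, exact permutation p = 0.3, adjusted 0.8). None of the 8 two-sided exact permutation tests passed, and with 3 against 3 libraries the smallest possible p is 0.1, so that none could.

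**Figure D5:**
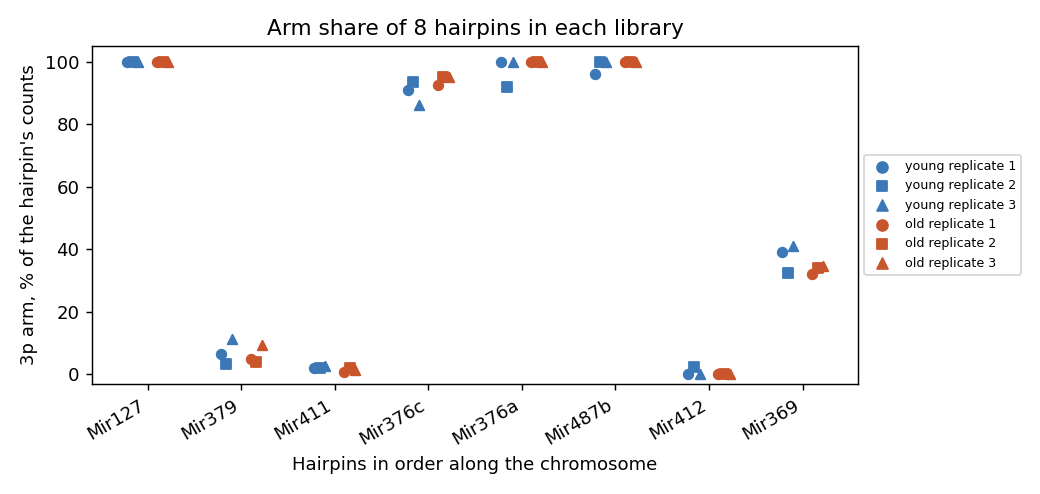
Share of each hairpin's counts on the 3p arm, in percent, for the 8 hairpins with at least 20 counts in every library, 1 point per library. Mir127, Mir376c, Mir376a and Mir487b lie near 100%, Mir411 and Mir412 near 0, and Mir369 between 32.0% and 40.9%.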

How the data were processed

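Small RNA reads of 6 vesicle libraries were aligned with BWA to mm10, per the submitters' processing notes. The sources used here give neither trimming nor BWA settings. Per the file headers, the deposited values are raw counts per mature miRNA locus from featureCounts 2.0.6 with no strand, overlap or multi-mapping option. Loci were named by exact position in RefSeq (GRCm38.p6; 1734 of 2110), otherwise by the GENCODE M21 hairpin that holds them within 3 bases (364). Host genes come from GENCODE M21.

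Old was compared with young over the whole table by edgeR 4.0.16 in R 4.3.3: filterByExpr (minimum count 10, minimum total 15), TMM, the quasi-likelihood test, two-sided, Benjamini-Hochberg over 347 loci, threshold 0.05. Fold changes are old over young. The procedure was tested on simulated data. DESeq2 1.42.0 and other scalings, filters, blocks and left-out libraries were alternatives. Arm shares were compared by exact permutation tests (scipy 1.17.1). The cluster window ran from 109500000 to 109800000, and position groups were split at 109575000, 109600000 and 109700000.

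By rule, the named miRNAs are every cluster locus that passed the filter, the 5 largest below it and every overlapping locus. Other cluster loci, such as miR-770-5p, miR-376b-3p, miR-134-5p, those at the window's edges and those sharing a sequence, were named after their values were seen. Cluster, lists and groups were chosen with earlier results of these data known, so no list was tested as a whole.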

Additional observations from a re-analysis of the deposited data

How the results depend on the processing

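Depth limits the loci counted a few times per library, and 3 libraries per group limit the tests. Among all loci, 12 were higher and 3 lower in old. The count of lower loci was 8 with miR-21a-5p left out of the scaling, 5 without the filter, 9 with DESeq2 and 5 with copies summed. Leaving out 1 library gave 5 (without young replicate 1 or 2, or old replicate 2) to 25 higher (without old replicate 1) and 0 (without old replicate 2) to 20 lower (without old replicate 1). With the replicate number as a block, 5 loci were higher and 1 lower, and none of the cluster passed. Same-numbered libraries did not deviate together over the tested loci (correlations of -0.13, 0.02 and -0.15), and no library correlated best with its own number. With 3 libraries per group, these correlations cannot exclude that same-numbered libraries shared a batch. In the cluster 0 of 14 loci passed. With miR-21a-5p left out of the scaling 1 of 14 passed, beside 13 higher and 8 lower of all 344 loci. With DESeq2 it was 1 of 14, beside 14 higher and 9 lower of 347. Leaving out 1 library gave 0 to 2 in the cluster. These were 2 of 14 without old replicate 1, beside 25 higher and 20 lower of 359. Without old replicate 3 they were 2 of 15, beside 17 higher and 12 lower of 360. The median log2 fold change of the tested cluster loci, 0.40, was 0.24 over 53 loci without the filter and 0.39 to 0.55 without 1 library. The ratio of the cluster's share, 1.42, ran from 1.26 to 1.52 without 1 library. Without miR-21a-5p in the library totals it was 1.28, and without miR-411-5p and miR-127-3p it was 1.36. miR-21a-5p alone had 519080, 532640 and 483800 CPM in young and 322900, 496870 and 567740 CPM in old replicates 1, 2 and 3. Some single loci changed sign: leaving out 1 library gave -0.64 to 0.086 for miR-493-5p (-0.42 with all libraries) and, of loci with values nearer 0, -0.48 to 0.19 for miR-411-3p, -0.016 to 0.74 for miR-409-3p and -0.26 to 0.11 for miR-381-3p, and miR-381-3p was 0.0055 with the block. The 3p share of Mir379 changed sign as well (-1.01 points, and -2.84 to 1.08 without 1 library). The cause of these changes was not tested.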

Other observations

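Below the filter, the 5 loci with the most counts were all in the Mirg group. miR-495-3p had 16, 1 and 8 counts in young and 2, 8 and 1 in old libraries. miR-382-5p had 7, 3 and 4 in young and 13, 4 and 5 in old. miR-376c-5p, the minor arm of Mir376c, had 7, 5 and 8 in young and 6, 4 and 5 in old. miR-494-3p had 3, 1 and 8 in young and 7, 10 and 4 in old, and miR-154-3p had 9, 8 and 4 in young and 3, 3 and 4 in old. These loci were not tested. miR-134-5p, a regulator of dendritic spines in neurons, was named after its values were seen and had 3 counts, all in young replicate 1.

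Base composition differed between detected and undetected loci. The median GC content was 47.6% over 49 non-overlapping loci with a count and a sequence, 54.5% over 51 loci at 0 and 45.5% over the 12 tested loci with a sequence, beside 52.2% over the distinct mature sequences of the table. This is a description, as loci of one hairpin share much of their sequence.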
